A study of Mus musculus with 6 samples.

Results

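Mitochondrial ribosomal proteins were followed in primary mouse adult fibroblasts (MAFs), cultured from ears, as protein-coding genes whose symbol begins with Mrpl or Mrps and a number. This rule took 77 of the 43346 genes in the count table, 48 named for the large subunit and 29 for the small subunit, and used no measured value. RNA was measured in 3 samples of control cells, which were sham irradiated, and 3 of senescent cells, which were exposed to X-rays at 20 Gy and then cultured for a further 21 days. Nothing in the labels tells whether replicates came from separate mice or cultures, so the p-values measure the spread between these samples. All cells were wild type C57BL/6, were kept at 3% oxygen, were used between passages 3 and 8, and carried the same treatment with 100 nM dexamethasone, which brings circadian clocks into phase. It lasted 2 hours and the cells were collected 12 hours later, so the values describe 1 time point. Whether control cells were cultured as long as senescent cells is not given in the sources used here.

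The mitochondrial ribosome, or mitoribosome, translates the few messenger RNAs of the mitochondrial genome, which encode core subunits of the respiratory chain and of ATP synthase. Its ribosomal RNAs are made in the mitochondrion, whereas its proteins are encoded by nuclear genes, translated in the cytosol, imported and assembled there. The small subunit binds the messenger RNA and decodes it, and the large subunit forms the peptide bond and releases the nascent chain at the inner membrane. Some of the proteins descend from those of bacterial ribosomes and others occur only in mitochondria. The genes are expressed in nearly all cell types, fibroblasts included.

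The start regions of these genes were searched first, since members that share a letter pattern can then be read against their RNA. RefSeq windows of 250 bases before to 50 bases after the start (build GRCm38.p6) were at hand for 68 of the 77 members, 74 windows in all. Patterns were searched on both strands. Those bound by NRF1, by ETS factors such as GABPA and by YY1 were chosen because these factors are known for nuclear genes of mitochondria, and the E-box and the AP-1 pattern because the study concerned BMAL1 and AP-1. The NRF1 pattern GCGCATGCG stood in 9.46% of member windows, 3.26% of the windows of tested protein-coding genes and 1.75% of all windows. The ETS pattern CCGGAAGT stood in 16.2%, 7.03% and 3.89% of these windows, and the YY1 pattern AAGATGGCG in 10.8%, 2.61% and 1.40%. The E-box CACGTG, the pattern known for BMAL1, stood in 9.46% of member windows, 9.43% of tested and 7.15% of all windows. The AP-1 patterns TGACTCA and TGAGTCA, each the reverse complement of the other, stood in 2.70%, 4.10% and 5.20%. Below are 40-base stretches, 1 or more for each of 4 patterns, that lie before the RefSeq start and outside annotated exons, with the pattern in capitals and each read 5′ to 3′ on the strand of its gene. They come from chr9:98601680-98601719 (minus strand), chr13:99344721-99344760 (plus), chr11:58171615-58171654 (plus), chr11:97041431-97041470 (plus), chr4:155802828-155802867 (plus) and chr5:31613849-31613888 (plus), in this order. The stretch of *Mrpl33* lies inside the span that the count table lists for this gene.
*Mrps22*, ETS: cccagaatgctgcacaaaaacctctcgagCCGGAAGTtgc
*Mrps27*, ETS: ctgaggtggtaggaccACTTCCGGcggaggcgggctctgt
*Mrpl22*, NRF1: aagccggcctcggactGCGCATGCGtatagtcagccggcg
*Mrpl10*, NRF1: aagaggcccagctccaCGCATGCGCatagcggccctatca
*Mrpl20*, E-box: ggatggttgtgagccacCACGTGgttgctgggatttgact
*Mrpl33*, AP-1: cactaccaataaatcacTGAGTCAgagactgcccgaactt

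Of these genes *Mrps22* rose in senescent cells, and the other 5 did not pass the test. Among the 7 members with the NRF1 pattern none was lower and 1, *Mrps18b*, was higher, with a median log2 fold change of 0.06. In the 61 members without it 25 were lower and 15 higher, with a median of −0.15. Of the 12 members with the ETS pattern 6 were lower and 1 was higher, with a median of −0.24, and of the 56 without it 19 were lower and 15 higher, with a median of −0.12. Of the 8 with the YY1 pattern 2 were lower and 2 higher (median −0.16), and of the 60 without it 23 and 14 (median −0.12). Over all tested genes 34.1% were lower and 36.2% higher, and differences between members with and without a pattern were not tested. The 5 members with the E-box held 1 lower and no higher gene, and of the 2 with an AP-1 pattern *Mrps5* was higher. A match is a run of letters and does not show that a factor binds there.

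Total counts lay between 50288454 and 82229553 per library, and a member held between 351 and 7092 counts in a library. Senescent replicate 3 stood apart. Its squared deviation (chi-square, median over genes) from the other 2 senescent libraries was 12.7 and 16.3 times the median that counting alone gives. Between these 2 it was 2.14 times. Control replicate 1 also stood apart, at 4.63 and 4.13 times from the other 2 control libraries, against 1.75 times between these. This measure grows with sequencing depth, and senescent replicates 2 and 3 were the deepest libraries. Each main result is also given without senescent replicate 3, the library with the highest values of this measure. The fibroblast list was expressed, with a summed level per length (TPM) of 16200 to 16800 in control and 10100 to 10500 in senescent libraries, and of its 9 markers 6 were lower, *Col1a1* (−2.54) and *Col1a2* (−1.87) among them, and 2 higher, *Dcn* (3.50) and *Thy1* (1.47). The 5 chondrocyte markers were also expressed and all fell, from a summed 2260 to 2450 TPM to 166 to 220 TPM. Macrophage markers were higher in 4 of 4, from 9.74 to 11.6 TPM to 25.1 to 29.6 TPM, and endothelial markers in 4 of 5, from 1.5 to 1.7 TPM to 4.43 to 4.97 TPM. Of the keratinocyte and the skeletal muscle markers 1 each was higher, of those of Schwann cells and melanocytes 2 were lower, and no marker was at 0 in all 6 libraries. Fewer cells of a type and less RNA per cell cannot be told apart in such bulk samples, and the part of these shifts in the results on mitoribosomal genes was not tested.

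All 77 members passed the filter on low counts and were tested with 17589 genes. The group as a whole changed little, and single genes moved both ways. Of the members, 29 were lower in senescent cells (37.7%, against 34.1% of all tested genes), 20 were higher (26.0%, against 36.2%) and 28 did not pass an adjusted p under 0.05. The median log2 fold change was −0.13, against 0.01 over all tested genes, with a range from −1.11 to 1.00. Only *Mrpl54* and *Mrpl14* fell past 2-fold (12.3% of tested genes did) and no member rose past it (17.8% did). Within 1.5-fold stayed 64 members (83.1%), against 50.5% of all tested genes and 61.0% of the 7341 protein-coding genes with a mean count in the members' range. In those 7341 genes 40.6% were lower and 31.5% higher, with a median of −0.09. An offset for transcript length changed the balance of the members to 18 lower and 22 higher, and the scaling by library size alone gave 22 of each. That scaling shifted the log2 fold changes of all genes by 0.078. The shares of all tested genes called under these 2 settings are not given here, so these counts are not results about the members alone.

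**Figure D1:**
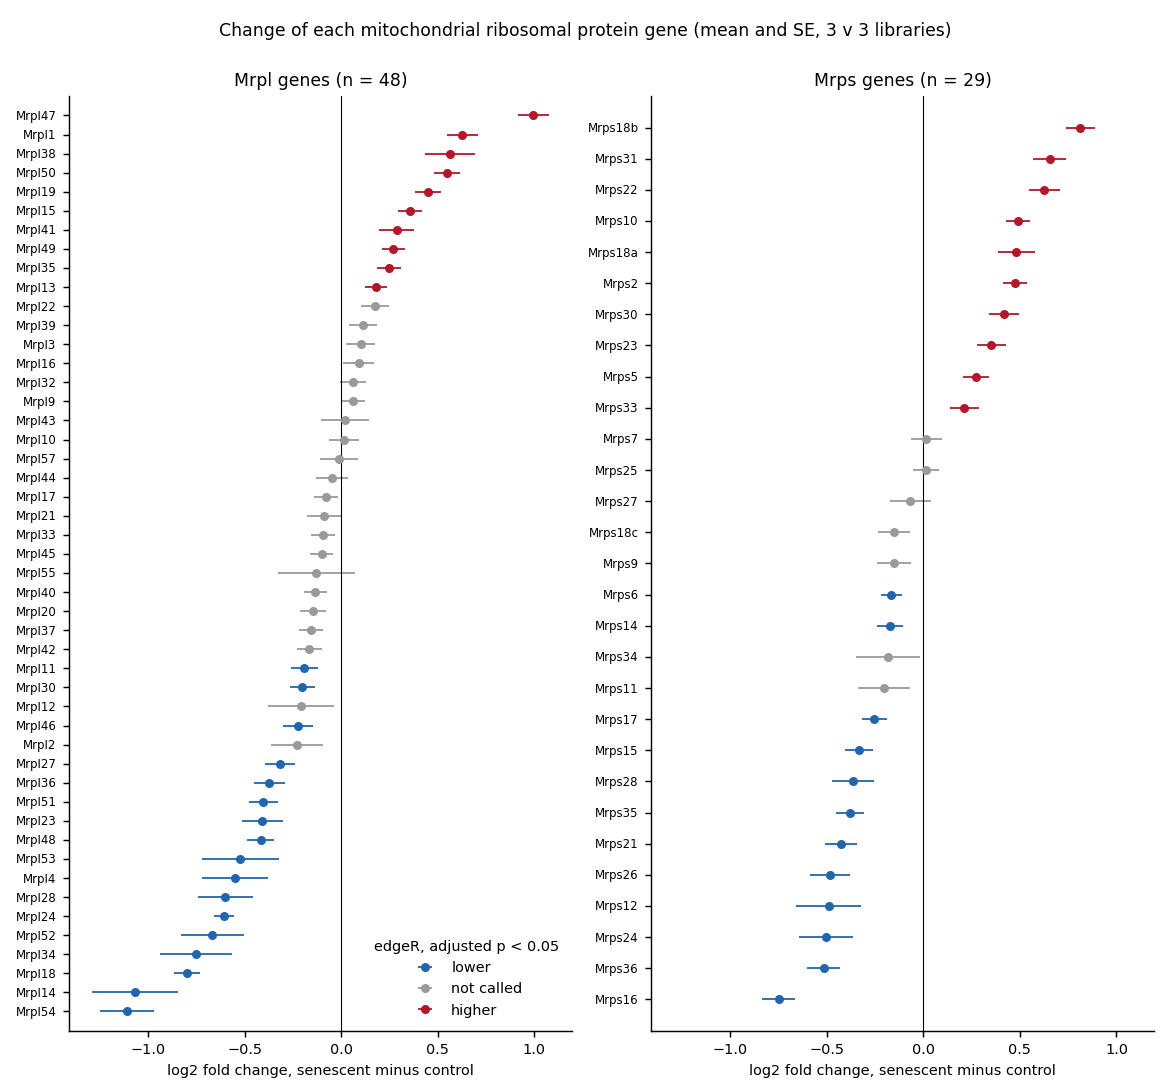
Log2 fold change, senescent minus control, of all 77 members with its standard error, the 48 Mrpl genes on the left and the 29 Mrps genes on the right, sorted by size. Blue points were lower (29), red points higher (20) and grey points not called (28). Both subunits run from clear decreases to clear increases.

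Levels in each library also showed single genes moving both ways. Values of control and senescent libraries did not overlap for 32 members with the senescent libraries lower (37.0% of tested genes) and for 22 with the senescent libraries higher (38.4%), and overlapped for 23. The summed share of the 77 genes was 0.202%, 0.209% and 0.208% of all counts in control libraries and 0.210%, 0.212% and 0.198% in senescent libraries. The groups overlapped, and the mean shares, 0.206% ± 0.0036 and 0.207% ± 0.0075 (SD, n = 3 each), had a ratio of 1.00. In these raw shares the overlap rests on senescent replicate 3, since the other 2 senescent libraries lay above all control libraries. The ratio without it was 1.02. Raw shares leave out the TMM factors, which were 0.979, 0.968 and 0.973 in control and 1.031, 1.024 and 1.027 in senescent libraries. Summed TPM of the members was 3737, 3882 and 3878 in control and 3715, 3742 and 3458 in senescent libraries. On that scale senescent replicates 1 and 2 did not lie above all controls. Without senescent replicate 3, 34 members were lower (37.4% of tested genes) and 22 higher (39.7%), the median was −0.06, and 70 members kept their call. The 7 others, which passed the test only without it, were *Mrpl37*, *Mrpl33*, *Mrps18c*, *Mrpl40* and *Mrpl42*, then lower, and *Mrpl16* and *Mrpl22*, then higher.

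The 8 largest decreases held 7 genes of the large subunit. *Mrpl54*, a protein found only in mitochondrial ribosomes (ENSMUSG00000034932, mm10, chr10:81264713-81266934, minus strand), had 30.5, 36.8 and 34.3 CPM (counts relative to library size, scaled by TMM) in control and 17.99, 16.7 and 12.5 CPM in senescent libraries. All senescent values lay below all control values, and the log2 fold change was −1.11 (SE 0.14, adjusted p = 0.000212 by the edgeR quasi-likelihood test). *Mrpl14*, the relative of bacterial uL14 at the face between the subunits (ENSMUSG00000023939, chr17:45686322-45698495, plus strand), had 15.7, 20.6 and 21.7 CPM in control and 10.7, 10.9 and 6.21 CPM in senescent libraries. Its lowest value was that of senescent replicate 3, and the log2 fold change was −1.07 (SE 0.22, adjusted p = 0.00302). Without that library both genes stayed lower but inside 2-fold, at −0.96 and −0.84. In the annotation *Mrpl14* overlaps *Tmem63b* on the other strand, and the strand setting of the counting is not given in the sources used here.

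*Mrpl18*, a protein of the central protuberance, was among the decreases with the least spread. It had 43.0, 43.9 and 42.5 CPM in control and 25.7, 25.7 and 23.0 CPM in senescent libraries, a log2 fold change of −0.80 (SE 0.07, adjusted p = 2.17e-05), and it overlaps *Tcp1* on the other strand. *Mrpl24*, which lies at the exit tunnel, had 83.1, 84.6 and 81.6 CPM in control and 54.4, 53.8 and 55.6 CPM in senescent libraries. Its decrease of −0.61 (SE 0.05, adjusted p = 2.03e-05) hardly moved without senescent replicate 3 (−0.61). *Mrpl24* overlaps *Rrnad1* on the other strand. *Mrps16*, the only small subunit gene of the 8, had 49.8, 50.9 and 53.9 CPM against 32.2, 32.8 and 27.0 CPM, and fell by 0.75 on the log2 scale (SE 0.09, adjusted p = 0.000125). *Mrpl34* (−0.75), *Mrpl52* (−0.67) and *Mrpl28* (−0.60) completed this set. In all 3, senescent replicate 3 was the lowest library, and without it they stayed lower at −0.55, −0.53 and −0.44.

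The 8 largest increases were shared evenly between the subunits, with 4 genes each. *Mrpl47*, the relative of bacterial uL29 at the exit tunnel (ENSMUSG00000037531, chr3:32725397-32737605, minus strand), had 16.1, 16.1 and 17.0 CPM in control and 30.1, 32.3 and 35.8 CPM in senescent libraries. It had the largest increase of the members, at a log2 fold change of 1.00 (SE 0.08, adjusted p = 1.88e-05), a fold of 1.99, and it overlaps *Actl6a* and *Ndufb5* on the other strand. *Mrps18b*, 1 of 3 relatives of bacterial bS18 (ENSMUSG00000024436, chr17:35910379-35916389, minus strand), had 25.2, 25.4 and 23.1 CPM against 43.0, 46.1 and 40.3 CPM. The 2 groups lay far apart and the log2 fold change was 0.81 (SE 0.08, adjusted p = 3.65e-05). *Mrps18b* overlaps *Gm16279* on the other strand.

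In other increases the senescent libraries lay close to each other. *Mrps31*, a small subunit protein specific to mitochondria, had 12.8, 12.1 and 10.8 CPM against 18.4, 18.6 and 19.3 CPM (log2 fold change 0.66, SE 0.09, adjusted p = 0.000247). *Mrpl1*, of the mobile L1 stalk, had 12.3, 13.9 and 12.6 CPM against 19.9, 19.4 and 20.8 CPM (0.63, SE 0.08, adjusted p = 0.000198). *Mrps22*, mutated in an inherited disease of mitochondrial translation and overlapping *Gm37637* on the other strand, had 11.1, 11.04 and 12.0 CPM against 16.7, 17.1 and 18.9 CPM (0.63, SE 0.08, adjusted p = 0.000241). No control library reached a senescent one in these genes. *Mrps10* (0.49) and *Mrpl50* (0.55) behaved likewise. *Mrpl38*, of the central protuberance, had 18.9, 19.6 and 20.1 CPM in control and 32.1, 31.6 and 22.8 CPM in senescent libraries, so senescent replicate 3 lay near the control values. Its log2 fold change was 0.56 (SE 0.13, adjusted p = 0.0054), and 0.72 without that library.

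**Figure D2:**
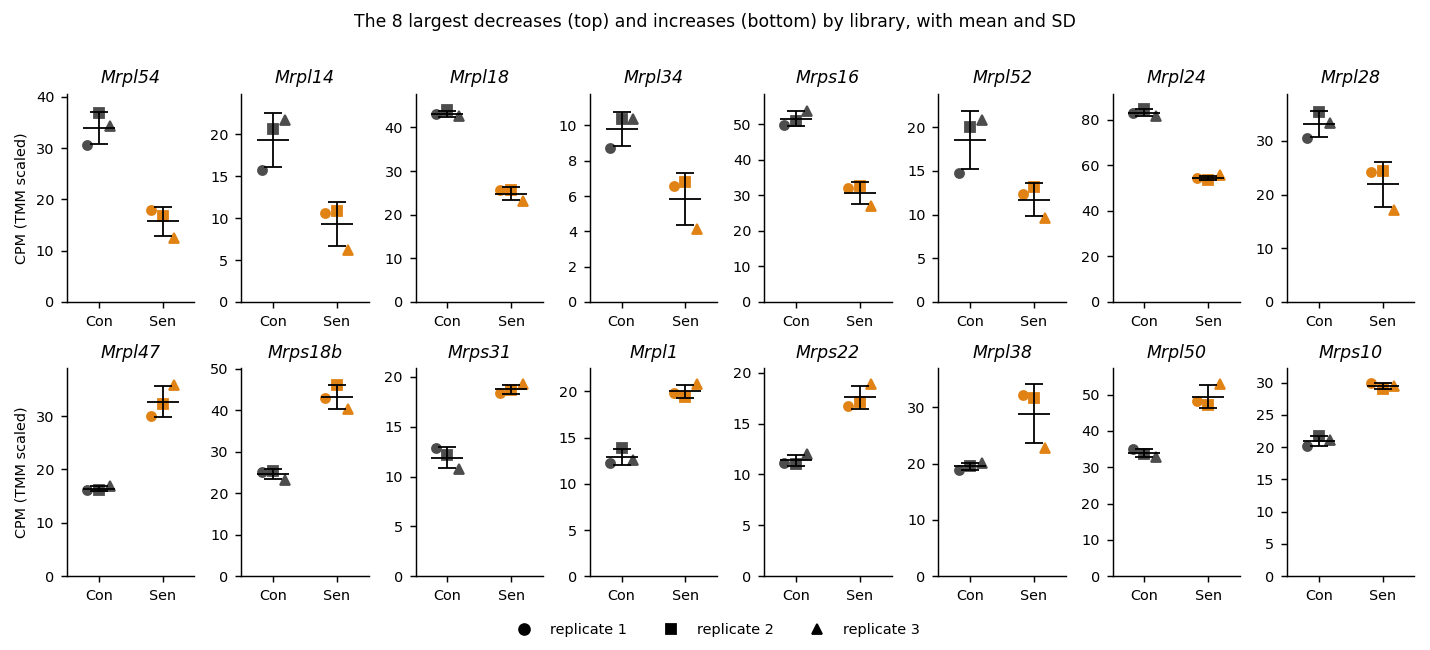
Level in each library, in CPM (TMM-scaled counts), of the 8 members with the largest decreases (top) and the 8 with the largest increases (bottom), control in grey and senescent in orange, with the mean and SD of 3 libraries. The 2 groups are apart in all 16 panels. In the top row replicate 3 (triangles) is the lowest senescent library in every panel but *Mrpl24*, and in the bottom row in *Mrps18b* and *Mrpl38*.

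The members were also ordered by place in the ribosome, and differences between the regions were not tested. In the central protuberance, the crown of the large subunit that contacts the small one, 5 of 8 members were lower and 1 was higher, where 34.1% of all tested genes were lower and 36.2% higher, with a median log2 fold change of −0.27. The lower genes were *Mrpl18*, *Mrpl52*, *Mrpl48* (−0.42), *Mrpl27* (−0.32) and *Mrpl46* (−0.22), the higher one was *Mrpl38*, and *Mrpl40* (−0.13) and *Mrpl55* (−0.13) did not pass. Without senescent replicate 3 the counts were 6 lower and 1 higher. *Ict1*, the peptidyl-tRNA hydrolase of the same region, which the symbol rule does not take, was also lower (−0.47, SE 0.07, adjusted p = 0.000546).

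Along the exit tunnel, where the nascent chain leaves, 2 of 8 genes were lower, 1 was higher and the median was −0.06. Of all tested genes 34.1% were lower and 36.2% higher. Without senescent replicate 3 there were 2 lower and 2 higher genes along the tunnel. Beside *Mrpl24* and *Mrpl47* the third called gene was *Mrpl23*, at −0.41 (SE 0.11, adjusted p = 0.00865). *Mrpl45*, which anchors the ribosome to the inner membrane, was at −0.10, and *Mrpl44*, which has an RNase III fold, at −0.05. *Mrpl17*, *Mrpl22* and *Mrpl39* were at −0.08, 0.17 and 0.11, and none of these 5 passed. The tunnel thus held both the largest increase of the members and a decrease with little spread.

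At the stalk that recruits translation factors, *Mrpl11* fell slightly, by 0.19 (SE 0.07, adjusted p = 0.0389), and *Mrpl10* was at 0.01 (SE 0.08, adjusted p = 0.872). *Mrpl12*, the flexible stalk protein, had 31.5, 35.0 and 35.6 CPM in control and 33.8, 33.7 and 21.2 CPM in senescent libraries. Senescent replicate 3 alone was low, and the log2 fold change went from −0.21 to −0.01 without it. In the list taken for the region of the peptidyl transferase centre, where the peptide bond is made, *Mrpl4* was lower (−0.55, SE 0.17, adjusted p = 0.0208). *Mrpl2* (−0.23), *Mrpl16* (0.09) and *Mrpl3* (0.10) did not pass. Without senescent replicate 3, *Mrpl4* stayed lower at −0.37 and *Mrpl16* was higher at 0.16.

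In the small subunit, the 5 genes at the decoding centre and the path of the messenger RNA went both ways. So did all tested genes, of which 34.1% were lower and 36.2% higher. *Mrps24* (−0.50, SE 0.14, adjusted p = 0.0125) and *Mrps12* (−0.49, SE 0.17, adjusted p = 0.0290) were lower, *Mrps5* (0.27, SE 0.07, adjusted p = 0.00724) was higher, and *Mrps7* (0.01) and *Mrps11* (−0.20) did not pass. The S18 family holds 3 paralogs of 1 bacterial protein. *Mrps18b* and *Mrps18a* (0.48, SE 0.10, adjusted p = 0.00229) were higher and *Mrps18c* was at −0.15 (SE 0.08, adjusted p = 0.136). The difference between paralogs was not tested. *Mrps18a* and *Mrps30* (0.42, SE 0.08, adjusted p = 0.00207) are named for the small subunit but sit in the large one, and both were higher. *Mrps36*, now known as a subunit of the α-ketoglutarate dehydrogenase complex and not of the ribosome, fell by 0.52 (SE 0.09, adjusted p = 0.000955).

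By name, 17 of 48 Mrpl genes were lower and 10 higher (median −0.12), and 12 of 29 Mrps genes were lower and 10 higher (median −0.15). By structure, with *Mrps18a* and *Mrps30* counted in the large subunit and *Mrps36* left out, the counts were 17 and 12 of 50 and 11 and 8 of 26. The 47 members with a bacterial relative held 19 lower and 11 higher genes (median −0.15), and the 29 specific to mitochondria 9 of each (median −0.07). Without senescent replicate 3 these 2 sets held 21 lower and 13 higher (median −0.08) and 12 lower and 9 higher (median 0.02). By name, the counts without it were 21 and 12 for Mrpl genes (median −0.062) and 13 and 10 for Mrps genes (median −0.056). The order of the medians by name thus turned without that library. Neither split separated the genes that fell from those that rose. Of all tested genes 34.1% were lower and 36.2% higher with all libraries, and 37.4% and 39.7% without senescent replicate 3.

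The members nearest to the threshold were *Mrpl53* (adjusted p = 0.0456) and *Mrps14* (0.0481) on the inside and *Mrpl42* (0.0514) and *Mrpl22* (0.0568) on the outside. *Mrpl53* was the only called member whose groups overlapped, with 11.2 CPM in its lowest control library and 11.3 CPM in its highest senescent one. Of the members that did not pass, those with the highest counts were *Mrpl33*, *Mrpl17*, *Mrpl10* and *Mrpl3*, with log2 fold changes between −0.09 and 0.10. *Mrpl33* had 83.3, 83.6 and 82.6 CPM in control and 74.5, 75.3 and 84.0 CPM in senescent libraries, so its senescent replicate 3 lay above all controls.

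Per length of the gene as listed in the count table, levels ranged from 7.57 TPM (*Mrps35*) to 230 TPM (*Mrps16*), mean of 6 libraries. Next to *Mrps16* stood *Mrpl42* (174 TPM), *Mrps6* (142 TPM) and *Mrpl52* (116 TPM), and next to *Mrps35* stood *Mrps10* (10.1 TPM) and *Mrps25* (11.2 TPM). *Mrps16* had 280 ± 9.8 TPM in control and 181 ± 16 TPM in senescent libraries, while *Mrpl42* had 177 ± 4.7 and 171 ± 12 TPM (SD, n = 3 each), so these neighbours in the order were close in senescent and apart in control cells. This order depends on the length used. With the length of 1 annotated transcript per gene, a choice made after the data were seen, *Mrps16* moved to 39.8 TPM and rank 39 of 77 and *Mrps10* to 63.2 TPM and rank 18, and the ranks of the 2 scales had a Spearman correlation of 0.668 over 77 genes.

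**Figure D3:**
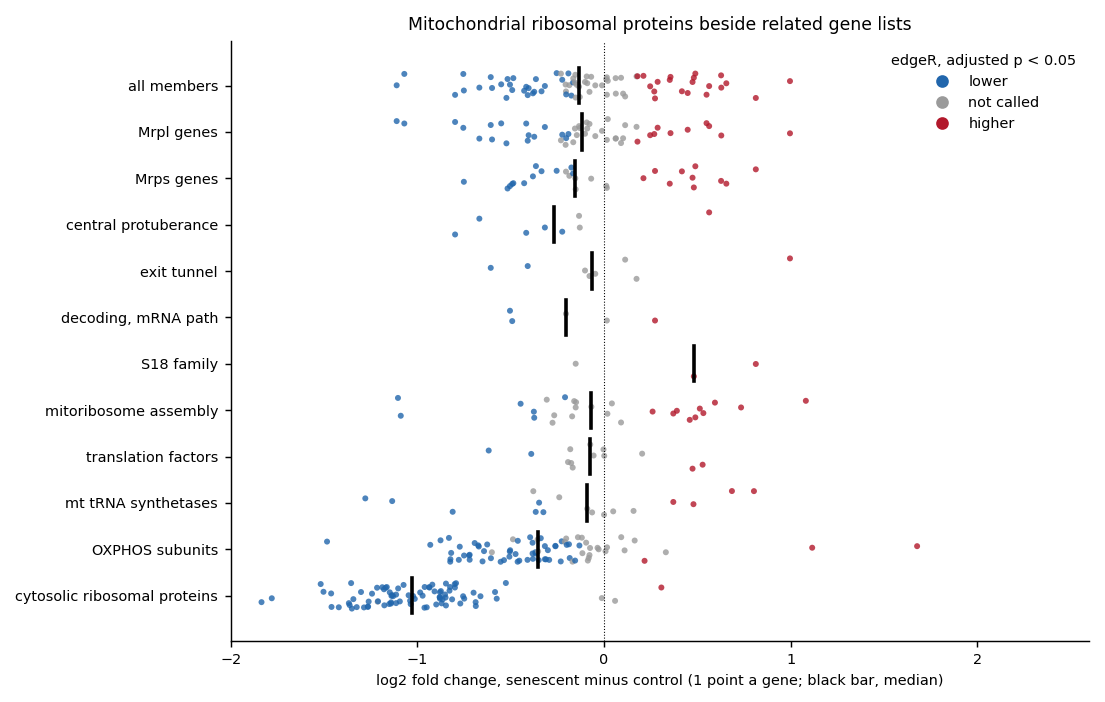
Log2 fold change, senescent minus control, of the genes of each list, 1 point per gene, with the median as a black bar, and with genes lower in blue, higher in red and not called in grey. The members centre near 0 (median −0.13) and reach to both sides, whereas the cytosolic ribosomal proteins lie almost wholly on the left (median −1.03).

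Beside the members, the proteins of the cytosolic ribosome were lower in 80 of 84 tested genes and higher in 1, *Rps27l*, with a median log2 fold change of −1.03 and 43 genes past 2-fold. Nuclear-encoded subunits of oxidative phosphorylation (OXPHOS), the machinery in which the products of the mitoribosome take part, were lower in 52 of 78 and higher in 3 (median −0.36). Without senescent replicate 3 the counts were 80 lower and 1 higher, and 58 lower and 6 higher. With all libraries, 34.1% of all tested genes were lower and 36.2% higher. For every 100 counts on cytosolic ribosomal proteins, the members had 4.96, 4.74 and 4.87 counts in control libraries and 9.09, 8.97 and 9.97 in senescent libraries. For every 100 counts on OXPHOS subunits they had 32.6, 32.6 and 32.7 in control and 40.6, 40.8 and 41.2 in senescent libraries. In both ratios the groups did not overlap, and an exact permutation test of 3 against 3 libraries cannot go below p = 0.1. While the members' share of raw counts had a ratio of 1.00, the mean shares of the other 2 sets went from 4.25% to 2.22% and from 0.631% to 0.506%. The 37 genes of the mitochondrial genome, its 13 protein-coding genes included, were listed with 0 counts in every library, so the RNAs the mitoribosome translates could not be followed.

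Genes that build and serve the mitoribosome were also called in both directions, as were all tested genes, of which 34.1% were lower and 36.2% higher. Of 27 assembly factors 6 were lower and 10 higher (median −0.07), and without senescent replicate 3 these were 8 and 13, with a median of 0.11. The lowest were *Nsun4*, which methylates the small ribosomal RNA (−1.10), and *Trmt2b*, an RNA methyltransferase (−1.09), and the highest were the ribosomal RNA methyltransferases *Rnmtl1* (1.08) and *Mrm1* (0.73). Of 13 translation factors 2 were lower, *Guf1* (−0.62) and *Gfm2* (−0.39), and 2 higher, the elongation factor *Gfm1* (0.53) and the recycling factor *Mrrf* (0.47). Without senescent replicate 3, 5 translation factors were lower and 2 higher. *Tufm*, which brings charged tRNAs to the ribosome, was at −0.18 and did not pass. Of 17 mitochondrial tRNA synthetases 6 were lower, *Sars2* (−1.28) among them, and 4 higher, led by *Yars2* (0.80) and *Mars2* (0.69), and without that library 8 were lower and 4 higher. Of 6 mitoribosomal proteins with other names *Ict1* and *Dap3* (−0.42) were lower and *Ptcd3* (0.45) was higher, and without it 3 were lower and 2 higher.

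Of 11 genes that handle mitochondrial messenger RNA, 5 were higher, among them *Lrpprc*, which stabilises it (0.79, SE 0.07, adjusted p = 2.32e-05), and *Fastkd1* (0.73), and 2 were lower, *Fastk* (−0.60) and *Slirp* (−0.23). Of 10 genes that transcribe and maintain mitochondrial DNA, 4 were higher, *Tfam* (0.29) and *Tfb2m* (0.67) among them, and *Polg*, the DNA polymerase, was lower (−0.63). *Polrmt*, the RNA polymerase, was at −0.32 and did not pass. Of 9 regulators of mitochondrial biogenesis 4 were higher and 1 lower. Without senescent replicate 3 the counts of these 3 lists were 7 higher and 2 lower, 5 higher and 1 lower, and 5 higher and 2 lower. With all libraries, 36.2% of all tested genes were higher and 34.1% lower. *Myc* had 39.0 ± 3.1 CPM in control and 67.1 ± 9.6 CPM in senescent libraries (SD, n = 3 each; log2 fold change 0.78, SE 0.11), *Pprc1* was at 0.37 and *Gabpa* at 0.30. *Nrf1*, whose pattern was searched above, fell by 0.42 (SE 0.08, adjusted p = 0.00133). *Ppargc1a* (−0.22), *Ppargc1b* (−0.29, at 0.255 and 0.212 CPM) and *Esrra* (0.22) did not pass.

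Base composition moved with the members' values and with the library that stood apart. Taking 1 annotated transcript for each of 76 members (*Mrpl33* had no match in the annotation), GC content ran from 39.6% to 60.6%. The log2 ratio of senescent replicate 3 to the mean of replicates 1 and 2 had a Spearman correlation of −0.703 with it over these 76 genes, and of −0.807 over 14522 protein-coding genes. Points in such a correlation share their libraries and are not independent. Of the 77 members, 46 were lowest in senescent replicate 3 among the senescent libraries and 19 were highest there. Among the control libraries, control replicate 1 was the lowest for 46 members too. The median coefficient of variation of a member was 3.85% in control, 6.77% in senescent libraries and 1.99% between senescent replicates 1 and 2.

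The change between groups also followed GC content, with a Spearman correlation of −0.424 over 76 members, −0.327 without senescent replicate 3, and −0.175 over 14522 protein-coding genes. Split into 3 sets by GC content, the lowest set held 6 lower and 11 higher members of 25, the middle set 9 and 7 of 26, and the highest set 14 and 2 of 25. Without senescent replicate 3 the counts were 8 and 11, 9 and 9, and 16 and 2. Of all tested genes, whatever their GC content, 34.1% were lower and 36.2% higher with all libraries. With an offset for the GC trend of each library 29 members were lower and 18 higher, and the shares over all tested genes with it are not given here. The log2 fold change had a Spearman correlation of 0.387 with the log2 of transcript length. The part of composition and length in the members' changes was not tested beyond these values.

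**Figure D4:**
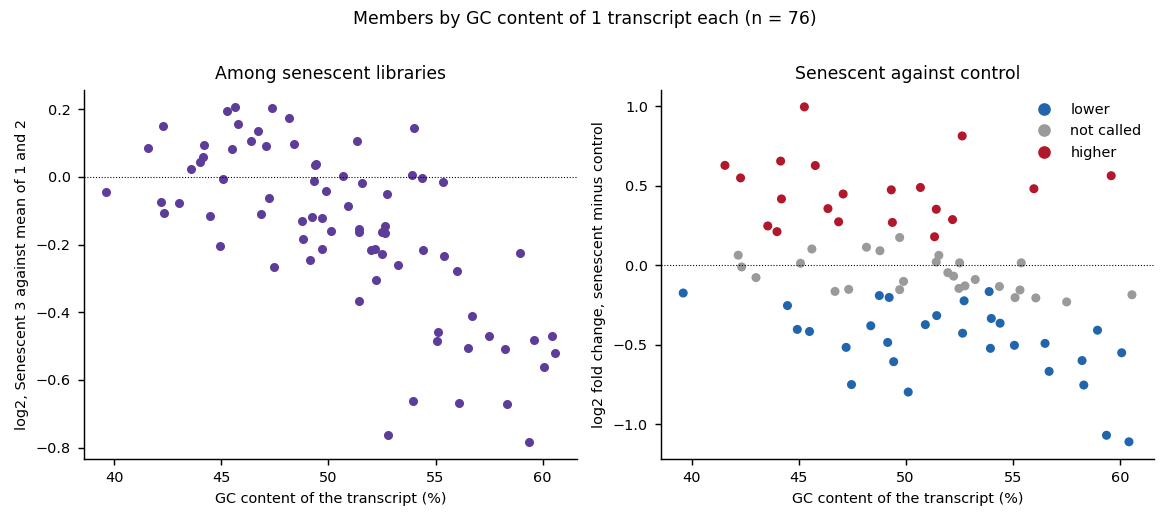
GC content of 1 annotated transcript for each of 76 members against the log2 ratio of senescent replicate 3 to the mean of replicates 1 and 2 (left) and against the log2 fold change, senescent minus control (right, coloured by call). The left cloud slopes down (Spearman −0.703), and on the right only 2 of the 25 members with the highest GC content are red while 14 are blue.

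Members were short and often began close to another gene. The median transcript of 76 members had 1302 bases, of which 582 were coding, against 3007 and 1380 bases over 14522 tested protein-coding genes, and the median GC content was 50.8% against 50.4%. A protein-coding gene that starts within 1000 bases, on the other strand and pointing away, was annotated for 18 of 76 members (23.7%), against 9.35% of tested protein-coding genes. The stretches between the GENCODE starts of 3 such pairs are shown because the neighbours changed while the members changed little or the other way. They lie at chr6:125191702-125191800 (plus strand), chr14:57826186-57826233 (plus) and chr19:6057786-6057843 (minus) of GRCm38.p6, are read on the strand of the member, and hold none of the 5 patterns.
*Mrpl51* and *Ncapd2*: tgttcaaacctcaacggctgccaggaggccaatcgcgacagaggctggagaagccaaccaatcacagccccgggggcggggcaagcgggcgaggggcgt
*Mrpl57* and *Ska3*: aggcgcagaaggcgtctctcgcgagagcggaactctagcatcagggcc
*Mrpl49* and *Fau*: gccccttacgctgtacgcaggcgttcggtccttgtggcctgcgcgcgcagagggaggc

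*Ncapd2*, a condensin subunit used in mitosis, dropped from 215 ± 3.3 to 10.6 ± 1.4 CPM (SD, n = 3 each; log2 fold change −4.34, SE 0.10, adjusted p = 3.06e-08). *Mrpl51*, 100 bases away, had 45.3, 47.0 and 47.1 CPM in control and 36.5, 37.0 and 31.9 CPM in senescent libraries, a decrease of −0.40 (SE 0.07, adjusted p = 0.00155). *Ska3*, a kinetochore protein, dropped from 21.9 ± 0.89 to 1.72 ± 0.076 CPM (−3.67, SE 0.09, adjusted p = 2.90e-08). *Mrpl57*, 49 bases away, had 9.54, 10.2 and 11.1 CPM against 9.67, 11.2 and 9.69 CPM, and the groups overlapped (−0.01, SE 0.10, adjusted p = 0.927). The members beside these mitotic genes thus held levels within 1.5-fold of control. The difference within a pair was not tested.

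In the pair of *Mrpl49* and *Fau* the 2 ribosomes meet, since *Fau* encodes a protein of the small cytosolic subunit. *Fau* fell from 208 ± 38 to 91.5 ± 27 CPM (SD, n = 3 each; −1.19, SE 0.23, adjusted p = 0.00222), whereas *Mrpl49*, 59 bases away, rose from 24.3, 24.4 and 23.8 CPM to 29.0, 28.8 and 29.6 CPM (0.27, SE 0.06, adjusted p = 0.00424). *Mrps12* and *Sars2*, 172 bases apart, were both lower (−0.49 and −1.28), as were *Mrpl54* and *Apba3* (−1.11 and −0.70). *Mrps18b* rose beside *Ppp1r10*, which was at 0.13 (adjusted p = 0.0811). Over the 18 pairs, 9 of the neighbours were lower and 3 higher, where 34.1% of all tested genes were lower and 36.2% higher.

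**Figure D5:**
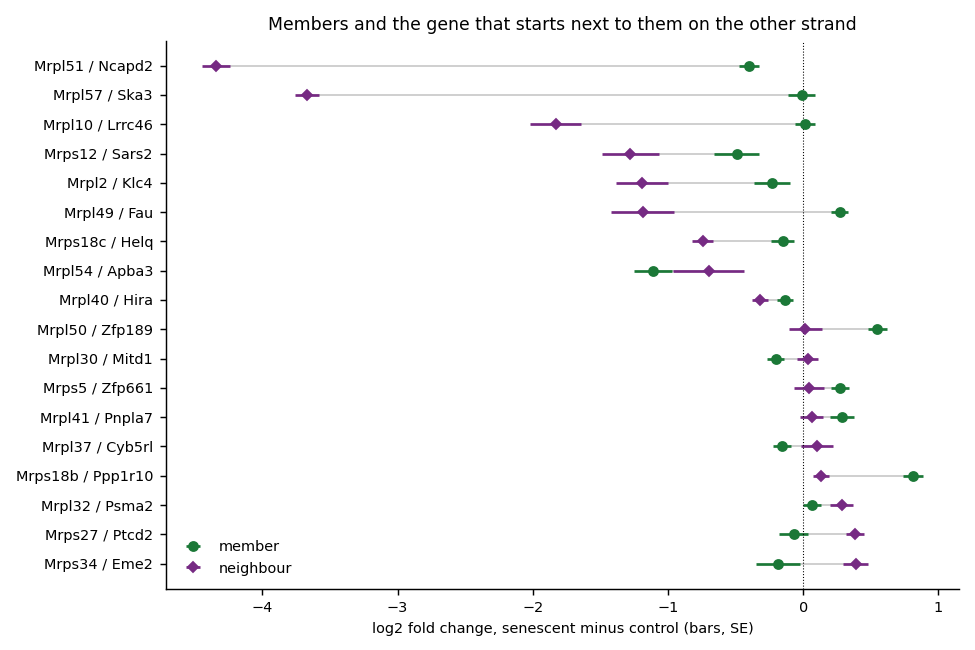
Log2 fold change, senescent minus control, with its standard error for the 18 members that start within 1000 bases of a protein-coding gene on the other strand (circles) and for that gene (diamonds), joined by a line. The neighbours reach down to −4.34 (*Ncapd2*) and −3.67 (*Ska3*), while the members lie between −1.11 and 0.81.

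The members lie on 17 chromosomes, with the most on chromosomes 11 (10 genes), 17 (8) and 6 (7). In the annotation 40 of 76 overlap another gene, 34 of them one on the other strand. The strand setting of the counting is not given in the sources used here, so the values of these 34 carry that uncertainty. Among the 36 without any overlap 16 were lower and 11 higher, against 34.1% and 36.2% of all tested genes. Copies without protein-coding annotation carried few counts: *Mrpl23-ps1* had 5.41 ± 0.48 CPM in control and 3.80 ± 0.17 CPM in senescent libraries (SD, n = 3 each; log2 fold change −0.51, adjusted p = 0.0026), in the direction of *Mrpl23*. *Mrpl48-ps*, *Mrps36-ps1* and *Mrps36-ps2* stayed below 1.2 CPM in every library. How reads that map to a gene and its copy were counted is not given in the sources used here, so the values of *Mrpl23*, *Mrpl48* and *Mrps36* carry this uncertainty.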

How the data were processed

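RNA-seq of 3 control and 3 senescent MAF samples was used. The authors prepared stranded, polyadenylated libraries, used the MAPRSeq pipeline (STAR for mapping of paired 100-base reads to mm10, Subread for counting per gene), and deposited raw counts. Genes were kept by filterByExpr (17589 genes), scaled by TMM and compared with edgeR 4.0.16 (quasi-likelihood test, robust, group as the only term; R 4.3.3), two-sided, with Benjamini-Hochberg adjustment over the genes tested. The SE of a log2 fold change was derived from this test, as its absolute value divided by the square root of the F statistic. Genes of the rule and the lists were chosen with earlier results of these data known. Levels are TMM-scaled CPM, or TPM from the gene length listed in the deposited table. Named genes were the 8 largest changes in each direction, the highest and lowest levels (4 and 3 genes), members at the threshold or uncalled with high counts, members of the ribosomal regions, the 2 largest changes per list in each direction, and a set of regulators, and 1 gene that this rule takes is not reported here. *Mrpl20*, *Mrpl37*, *Mrpl49*, *Mrpl51*, *Mrpl57*, *Mrps27*, *Mrps30*, *Mrps36*, the neighbours and the pseudogenes were chosen after their values were seen. Annotation was GENCODE vM21 of GRCm38, the assembly of mm10. Alternatives were RLE scaling, library size alone, no filter, at least 10 counts, DESeq2 1.42.0, edgeR's exact test, protein-coding genes alone, a replicate block, GC and length offsets, and each library left out. On simulated data the test recovered 196 of 200 changed genes, with 10 false calls among 17223 genes tested. In that simulation every gene had the same dispersion, no library stood apart, and the planted changes were larger than most of the members' changes. Its rates thus do not carry over to these libraries. Reads carried no molecular identifiers.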

Additional observations from a re-analysis of the deposited data

How the results depend on the processing

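With each library left out in turn, the count of lower members ran from 20 to 34, that of higher members from 16 to 22 and the median log2 fold change from −0.15 to −0.06, and the number past 2-fold from 0 to 3, reaching 0 without Senescent replicate 3. The GC offset and the length offset also left 0 members past 2-fold, and the length offset 18 lower members. With the replicate number as a block, 23 members were lower and 17 higher. Same-numbered control and senescent samples deviated with correlations of −0.145, 0.135 and −0.12, so the numbers were not taken as pairs. DESeq2 gave 25 lower and 20 higher. For the other mitochondrial lists together (19 lower and 26 higher of 84), leaving out a library gave 15 to 27 lower and 25 to 33 higher. The ratio of the members' summed share of raw counts ran from 0.992 to 1.02. Without Senescent replicate 3, 37.4% of all tested genes were lower and 39.7% higher. For the other alternatives the shares over all tested genes are not given here. A change of setting can move calls over all genes, so these counts are not results about the members or lists alone.

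Of 768 values of named members under the alternatives, 656 kept direction and call, 67 lost the call, 20 gained it and 25 changed sign, as did 1 of 623 values of other named genes. The cause was not tested. Values that changed sign lay between −0.134 and 0.152 and did not pass the test under that alternative, and of these genes *Mrps6* alone was called with the main settings. Scaling by library size alone gave log2 fold changes of 0.0 for *Mrpl17* and 0.031 for *Mrpl44*, and at least 10 counts 0.002 for *Mrpl44*. Protein-coding genes alone gave −0.002 for *Mrpl10*, −0.002 for *Mrps7* and −0.005 for *Mrps25*. The GC offset gave 0.004 for *Mrpl2*, −0.038 for *Mrpl3*, 0.001 for *Mrpl44*, −0.134 for *Mrps25* and 0.002 for *Tufm*. The length offset gave 0.127 for *Mrpl42*, 0.038 for *Mrpl44*, 0.052 for *Mrpl55*, 0.152 for *Mrps18c*, −0.104 for *Mrps25* and 0.056 for *Mrps6*. With each library left out, *Mrpl10* ran from −0.018 to 0.095, *Mrps7* ran from −0.02 to 0.098, *Mrps25* ran from −0.03 to 0.03, *Mrpl44* ran from −0.077 to 0.031 and *Mrpl55* ran from −0.276 to 0.096.

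Members held at least 351 counts per library.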
